A study of Mus musculus with 15 samples.

Results

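Ccl2, Ccl7 and Ccl12 encode the monocyte chemoattractant proteins MCP-1, MCP-3 and MCP-5, and the crosslink sites of tristetraprolin (TTP) on their mRNAs were collected from 6 lists of iCLIP sites. All sites on the sense strand of these 3 genes were taken, in any region of the gene. They numbered 409 of the 162273 sites summed over the 6 lists, with 1256 unique cDNAs, and the genes were 3 of the 8011 that held a sense-strand site in any list. The 3′UTRs carried 1154 of these cDNAs, of which 1006 lay in Ccl2, 134 in Ccl7 and 14 in Ccl12. No site lay antisense to the genes, and no sense site lay in the 1000 nt downstream of any of them.

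iCLIP maps RNA–protein contacts to single nucleotides: cells are irradiated with UV light, the protein is precipitated with its crosslinked RNA, and reverse transcription stops at the crosslinked nucleotide, so that each unique cDNA reports 1 crosslink. The cells were C57BL/6 bone marrow-derived macrophages from TTP-deficient mice, immortalised with the oncogenes hcmyc and hRasG12V. They carried a tet-inducible vector for GFP-TTP or for GFP-TTP-AA, a mutant with alanine in place of the serines that MK2 phosphorylates. Doxycycline was given to all cells at 1 µg/ml for 6 h. Lipopolysaccharide (LPS), a component of the outer membrane of Gram-negative bacteria, was added at 1 µg/ml for 1 h or 4 h, or left out (0 h). In order of time, the TTP lists pooled 2, 4 and 2 libraries and the TTP-AA lists 2, 3 and 2. TTP was thus expressed from a transgene induced before LPS, in oncogene-immortalised cells, and not from its own LPS-responsive gene.

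Each list was a sum over its libraries and had no replicate values, so every test below compares pooled lists and not conditions, and the intervals cover counting error only. The lists held between 8052 and 86497 sites and between 19167 and 174397 cDNAs. The cDNAs in 3′UTRs, which serve as the denominator of the shares below, numbered 4369, 9558 and 906 for TTP in order of time, and 6008, 93510 and 1000 for TTP-AA. Only sites that passed the false-discovery rate of the study are listed, so a gene at 0 had no site that passed. Exons of 8 of 8 macrophage marker genes held cDNAs, 516 over the 6 lists, with sums from 0 to 387 per list. The sum was 0 in the TTP-AA lists at 0 h and 4 h. Lyz2 alone held 300 of the 516, and Itgam, Cd68, Cd14, Tlr4 and Mrc1 held cDNAs only in the TTP-AA list at 1 h. The 3 markers each of T cells, B cells, neutrophils and fibroblasts were at 0 in all lists. These are counts of listed crosslink sites and not of expression, so they do not establish the cell type.

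The monocyte chemoattractant proteins are small secreted chemokines that draw monocytes out of the blood into inflamed tissue, in large part through the receptor Ccr2. Macrophages transcribe their genes within the first hours after LPS reaches Tlr4, and the mRNAs are short-lived. TTP binds AU-rich elements, typically around the pentamer AUUUA, in the 3′UTRs of such mRNAs and recruits deadenylation and decay factors. Phosphorylation by the kinase MK2 restrains this activity, and the TTP-AA mutant escapes that restraint.

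The 3 genes lie on the plus strand of mouse chromosome 11 (GRCm38, mm10) and have 3 exons each. Ccl2 (ENSMUSG00000035385.5) spans chr11:82035571-82037453 and ends in a 3′UTR of 275 nt that starts at position 82037179. Ccl7 (ENSMUSG00000035373.2) spans chr11:82045712-82047525, and its 3′UTR of 435 nt starts at position 82047091. Ccl12 (ENSMUSG00000035352.3) spans chr11:82101845-82103400, and its 3′UTR of 167 nt starts at position 82103234. The A and T content of the 3′UTRs was 71.6% in Ccl2, 64.8% in Ccl7 and 71.3% in Ccl12. No stretch of 30 nt of the 3 3′UTRs recurred in an annotated transcript of another gene. Shorter stretches and the lengths of the reads were not examined.

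The 3′UTRs differed in their AUUUA content, searched as ATTTA on the sense strand with overlaps allowed. Ccl2 held 1 copy, at nucleotides 40 to 44 after the stop codon. Ccl7 held 2 copies, at 177 to 181 and at 336 to 340. Ccl12 held 5 copies, which started at nucleotides 56, 92, 117, 127 and 163. ATTTA was found in 65.2% of all 21028 annotated 3′UTRs. Among 3′UTRs within 10% of the length of each gene it was found in 34.8% for Ccl2, 47.1% for Ccl7 and 21.4% for Ccl12. The 5 copies of Ccl12 were matched by few 3′UTRs of its length, since 3 of 524 (0.573%, Ccl12 included) held at least as many. The longer motif TATTTAT occurred once in Ccl12, at nucleotides 55 to 61, and in neither of the other two, against 27.6% of all 3′UTRs, and TTATTTATT (7.66% of all 3′UTRs) was in none of the 3.

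The following stretches of 30 nt show where crosslinks fell at 1 h, picked after the values were seen from the stretches with most TTP-AA cDNAs. They are read 5′ to 3′ from the GENCODE transcripts with T in place of U, and capitals mark each whole ATTTA.
Ccl2, nucleotides 23 to 52: taattaatattaaacttATTTAacttattg
Ccl2, nucleotides 210 to 239: tattgtttaaaatattattatggatattcc
Ccl7, nucleotides 155 to 184: tctttaagttattaatatttttATTTAatt
Ccl7, nucleotides 331 to 360: attttATTTAaaaacttttaggataaaatc
Ccl7, nucleotides 270 to 299: ctttccccatttttactttgttcttgtatt
Ccl12, nucleotides 64 to 93: tgatatctaaaaagagatgtttttaataat
Ccl12, nucleotides 109 to 138: taaataatATTTAatggtATTTAagtaata

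The first Ccl2 stretch (chr11:82037201-82037230) held 332 of 913 TTP-AA cDNAs of this 3′UTR and 44 of 81 from TTP. The second Ccl2 stretch (chr11:82037388-82037417) has no ATTTA and yet held 237 TTP-AA cDNAs and 18 TTP cDNAs. The first Ccl7 stretch (chr11:82047245-82047274) held 40 and 6 cDNAs, the stretch around the second ATTTA of Ccl7 (chr11:82047421-82047450) held 31 and 0, and the printed stretch without ATTTA (chr11:82047360-82047389) held 17 and 4. Another pair of stretches without ATTTA, whose letters are not printed, also held many TTP-AA cDNAs. Nucleotides 68 to 97 of Ccl2 (chr11:82037246-82037275) held 112 TTP-AA cDNAs and 11 TTP cDNAs. Nucleotides 376 to 405 of Ccl7 (chr11:82047466-82047495) held 17 and 0. In Ccl12, the stretch with most cDNAs (chr11:82103297-82103326) held 8, all of TTP-AA, and ends within an ATTTA that starts at nucleotide 92. The Ccl12 stretch with 2 whole ATTTA copies (chr11:82103342-82103371) held 2 TTP-AA cDNAs. Among these 3 genes the number of AUUUA copies and the number of cDNAs ran in opposite order. Other chemokine ligands did not keep to that order. Cxcl2 had 11 copies and 2536 TTP-AA cDNAs at 1 h, while Ccl9 had 5 copies and 113.

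The level of each gene was first followed over the 6 lists. The Ccl2 3′UTR held 2 cDNAs at 0 h, 81 at 1 h and 0 at 4 h in the TTP lists. In the TTP-AA lists it held 0, 913 and 10 cDNAs. Most Ccl2 cDNAs were thus in the 1 h lists, which were also the deepest lists. Over the same times the Ccl7 3′UTR held 0, 11 and 4 TTP cDNAs and 0, 118 and 1 TTP-AA cDNAs. The Ccl12 3′UTR held 14 cDNAs in the TTP-AA list at 1 h and 0 in the other 5 lists. By the number of 3′UTR cDNAs, Ccl2 ranked 14 of 1306 genes in the TTP list at 1 h, 6 of 4510 in the TTP-AA list at 1 h and 14 of 198 in the TTP-AA list at 4 h. Ccl7 ranked 120 and 94 in the lists at 1 h and 36 of 127 in the TTP list at 4 h. Ccl12 ranked 1460 in the TTP-AA list at 1 h. A crosslink count rises both with the amount of an mRNA and with the fraction of it that is bound, and these cannot be told apart here, since mRNA levels were not analysed.

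**Figure D1:**
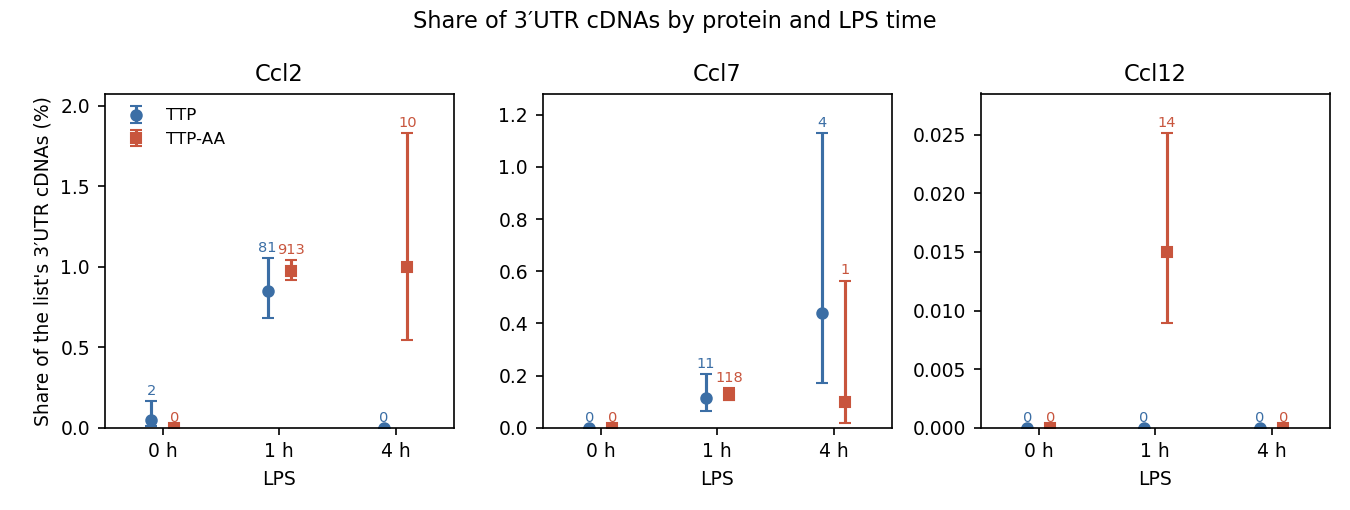
Share of the 3′UTR cDNAs of each list (%, y axis) that fell in Ccl2, Ccl7 and Ccl12 by hours of LPS (x axis). Circles show TTP and squares TTP-AA, bars are 95% Wilson intervals (none is drawn at 0), numbers are cDNAs, and each panel has its own scale. Ccl2 sits at 0.847% (TTP) and 0.976% (TTP-AA) at 1 h.

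The shares were then compared between TTP-AA and TTP at 1 h to ask whether the mutant took up more of these mRNAs. Ccl2 made up 0.847% of the TTP 3′UTR cDNAs (95% interval 0.682 to 1.05) and 0.976% of the TTP-AA 3′UTR cDNAs (0.915 to 1.04). The odds ratio, TTP-AA over TTP, was 1.15 (95% exact interval 0.917 to 1.47) with an adjusted p of 0.560 (two-sided Fisher's exact test of the gene's cDNAs among those of all 3′UTRs, adjusted over the 2102 genes with at least 10 cDNAs). Ccl7 made up 0.115% (0.0643 to 0.206) and 0.126% (0.105 to 0.151), with an odds ratio of 1.10 (0.591 to 2.26) and an adjusted p of 0.924 in the same exact test. Ccl12 made up 0% and 0.0150% (0.00892 to 0.0251), with a lower bound of 0.339 for the odds ratio and an adjusted p of 0.730 in the same exact test. None of the 3 genes passed the threshold, whereas 6.23% of the genes tested did. The higher calls made up 1.95% of the genes tested and the lower calls 4.28%. The intervals leave room for a Ccl2 share up to 1.47 times higher and for a Ccl7 share 2.26 times higher in TTP-AA.

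In raw cDNAs, Ccl2 had 11.3 times as many in the TTP-AA list as in the TTP list (95% exact interval 8.97 to 14.3), and Ccl7 10.7 times as many (5.78 to 22.1). Per library, Ccl2 had 20.2 TTP cDNAs and 304 TTP-AA cDNAs. Both ratios were near the ratio of the summed 3′UTR cDNAs of the lists, 9.78. Of the 2102 genes tested, 1166 had 0 TTP cDNAs and no finite ratio. The other 936 had a median ratio of 7.00 with quartiles of 4.00 and 11.2, so the place of Ccl2 and Ccl7 near the upper quartile holds for genes with cDNAs in both lists and not for all genes tested. The ratio of Ccl7 set against that of Ccl2 gave an odds ratio of 1.05 (0.490 to 2.06, TTP over TTP-AA), so the 2 genes were not distinguished. Of the 95 genes tested that had as many 3′UTR cDNAs over both lists as Ccl12, 75 including Ccl12 likewise had none in the TTP list.

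The comparison depended on the denominator. 3′UTRs held 9.63% of all cDNAs in the TTP list at 1 h and 53.6% in the TTP-AA list. Against all cDNAs of the list, the odds ratio was 6.44 (5.13 to 8.19) for Ccl2 and 6.11 (3.29 to 12.6) for Ccl7, and its lower bound was 1.89 for Ccl12. Their adjusted p values were 1.07e-91, 8.76e-12 and 0.00535 (Fisher's exact test). With this denominator 84.8% of the genes tested were called higher and 0.428% lower, so the 3 genes moved with most other 3′UTRs. When each site counted once irrespective of its cDNAs, the Ccl2 odds ratio turned to 0.446 with an adjusted p of 4.26e-04 (Fisher's exact test), where 0.885% of the genes were called higher and 4.63% lower. In that count TTP-AA sites already occupied 186 of the 275 nucleotides of the Ccl2 3′UTR, with 4.91 cDNAs per site against 1.76 for TTP.

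**Figure D2:**
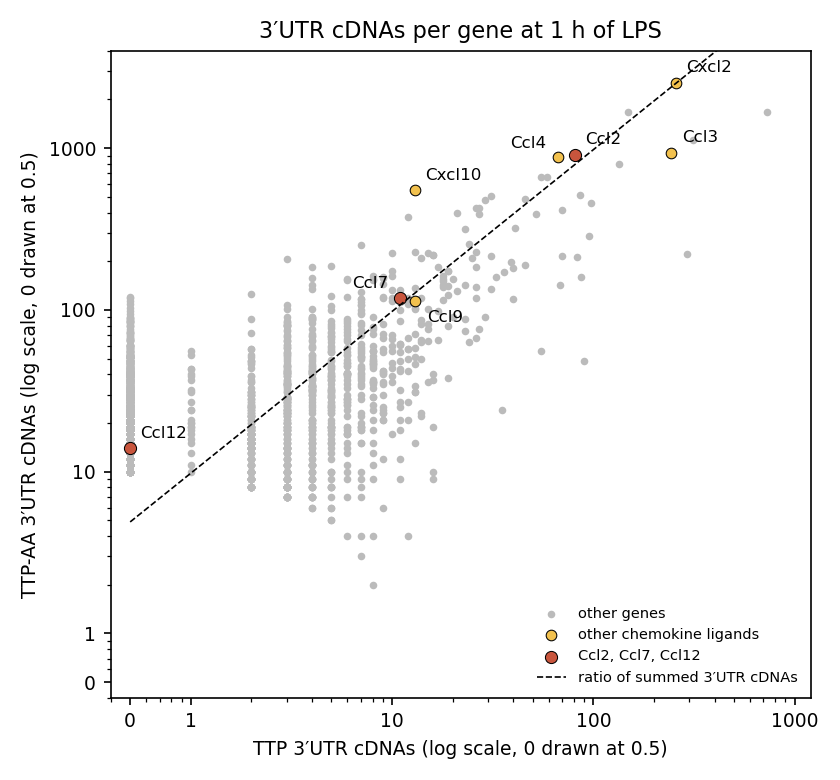
TTP-AA 3′UTR cDNAs (y axis) against TTP 3′UTR cDNAs (x axis) at 1 h for each of the 2102 genes with at least 10 cDNAs over both lists, on log scales with 0 drawn at 0.5. Red points are Ccl2, Ccl7 and Ccl12, yellow points other chemokine ligands and grey points other genes; the dashed line is the ratio of the summed 3′UTR cDNAs, 9.78. Ccl2 and Ccl7 lie close to the line.

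LPS time was compared within each protein, with the 1 h list shared by both comparisons of a protein. The headers of the 1 h lists carry a processing mark that those of the other times lack, so LPS time and a difference in site filtering cannot be told apart. From 0 h to 1 h, the Ccl2 share rose from 0.0458% (0.0126 to 0.167) to 0.847% of the TTP 3′UTR cDNAs. Its odds ratio was 18.7 (5.00 to 157), adjusted p = 1.27e-09 by Fisher's exact test. The rise of Ccl7 from 0 to 11 TTP cDNAs gave a lower bound of 1.15 and an adjusted p of 0.0488 (Fisher's exact test). That call was lost when each site counted once (adjusted p = 0.0549), against all cDNAs of the list (0.117) and with all sense-strand cDNAs (0.0820, all Fisher's exact tests), and 23.8% of the 277 genes tested were called higher. In the TTP-AA lists, Ccl2 rose from 0 to 913 cDNAs, with an odds ratio of at least 16.0 and an adjusted p of 4.90e-23 (Fisher's exact test). Ccl7 rose from 0 to 118 cDNAs, with an odds ratio of at least 2.03 and an adjusted p of 0.0151 (Fisher's exact test). Both were among the 3.03% of 2081 genes that were called higher in TTP-AA at 1 h. The Ccl7 call was lost when each site counted once (adjusted p = 0.103) and when sites needed at least 2 cDNAs (adjusted p = 0.211, both Fisher's exact tests). For Ccl12, 0 and 14 cDNAs did not pass the test (adjusted p = 1.00, Fisher's exact test).

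From 1 h to 4 h, Ccl2 fell from 81 of 9558 to 0 of 906 TTP 3′UTR cDNAs. The odds ratio was at most 0.488, adjusted p = 0.00817 by Fisher's exact test, where 5.88% of 170 genes were called lower. This call was lost when each site counted once (adjusted p = 0.173, Fisher's exact test). Ccl7 made up 0.115% of the TTP 3′UTR cDNAs at 1 h and 0.442% (0.172 to 1.13) at 4 h, from 4 cDNAs. The odds ratio of 3.85 (0.892 to 13.0) did not pass (adjusted p = 0.146, Fisher's exact test). In the TTP-AA lists, the Ccl2 share was 0.976% at 1 h and 1.00% (0.544 to 1.83) at 4 h. The odds ratio was 1.02 (0.488 to 1.90) and that of Ccl7 0.792 (0.0199 to 4.51), each with an adjusted p of 1.00 (Fisher's exact test), against 3.09% of 2009 genes called in either direction. The whole TTP-AA 3′UTR signal dropped from 93510 to 1000 cDNAs between these lists, and against all cDNAs of the list the Ccl2 odds ratio was 0.0992 (adjusted p = 2.76e-26, Fisher's exact test), where 13.5% of the genes were called lower.

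At 4 h, Ccl2 had 10 of 1000 TTP-AA 3′UTR cDNAs and 0 of 906 TTP 3′UTR cDNAs. The odds ratio was at least 2.04 with an adjusted p of 0.00353 (Fisher's exact test), in a comparison that called 68.0% of its 25 genes and 36.0% of them higher. Ccl2 just met the minimum of 10 cDNAs, and did so through the TTP-AA list alone. These cDNAs lay close together, between nucleotides 97 and 111 of the 3′UTR, while the test counted them as independent. Whether the TTP-AA over TTP odds differed between 4 h and 1 h was tested directly, a test added after the values were seen. Ccl2 missed the threshold after adjustment (exact test of equal odds ratios, p = 0.00581, adjusted p = 0.0783) and Ccl7 had an adjusted p of 0.457, where 4.80% of 229 genes were called. A difference between the times was therefore not shown. At 4 h, Ccl7 had 4 TTP cDNAs and 1 TTP-AA cDNA, and Ccl12 had 0 in both lists, too few to test. At 0 h, the 2 Ccl2 cDNAs of TTP were the whole signal of the 3 genes.

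Most crosslinks lay in the 3′UTRs. Of the 99 sense-strand Ccl2 cDNAs in the TTP list at 1 h, 81.8% (73.1 to 88.2) were in the 3′UTR, and of the 996 in the TTP-AA list 91.7% (89.8 to 93.2) were. Over all protein-coding genes these shares were 37.4% and 85.6%. The coding sequence of Ccl2 held 6.06% (2.81 to 12.6) of its cDNAs in the TTP list and 6.83% (5.42 to 8.57) in the TTP-AA list. The 6 TTP coding sites lay 54 to 72 nt before the end of the stop codon, and the 44 TTP-AA coding sites lay 2 to 149 nt before it, so all of them were in the last part of the reading frame. Introns of Ccl2 held 10.1% (5.58 to 17.6) of them for TTP and 1.51% (0.915 to 2.47) for TTP-AA, against 52.8% and 10.2% over all protein-coding genes. Intron sites of both proteins met in a short stretch, at chr11:82036168-82036174 for TTP and chr11:82036171-82036184 for TTP-AA, and 4 nucleotides held a site of each. The other 5 intron sites of TTP were at chr11:82035827-82035838, and 2 TTP sites lay in the 5′UTR. Ccl7 had 1 coding cDNA, in the TTP list at 1 h, and Ccl12 had no site outside its 3′UTR.

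**Figure D3:**
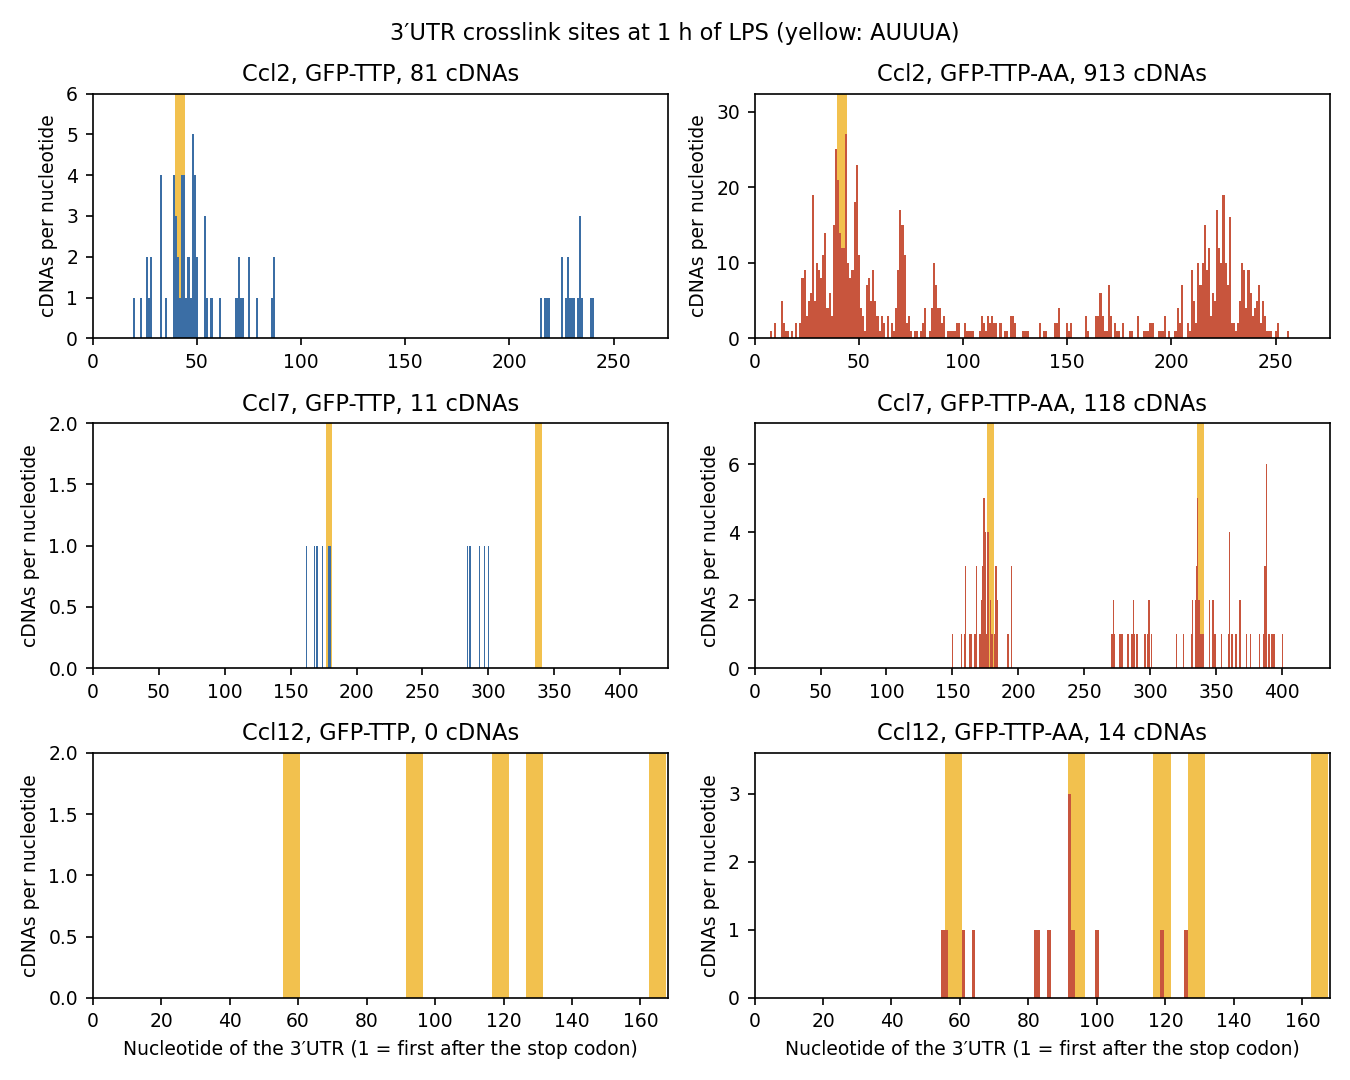
cDNAs at each nucleotide (y axis) along the 3′UTRs of Ccl2, Ccl7 and Ccl12 (x axis, nucleotides after the stop codon) at 1 h of LPS, for TTP (blue, left) and TTP-AA (red, right), with AUUUA copies in yellow. Each panel has its own y scale; both proteins peak around the AUUUA of Ccl2 and again past nucleotide 210.

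Within the Ccl2 3′UTR, TTP had 46 sites between nucleotides 20 and 240, and TTP-AA had 186 sites between nucleotides 8 and 256. The site with most TTP cDNAs was nucleotide 48 (position 82037226), with 5 TTP cDNAs and 18 TTP-AA cDNAs. The site with most TTP-AA cDNAs was nucleotide 44 (position 82037222), the last base of the AUUUA, with 27 TTP-AA cDNAs and 4 TTP cDNAs. No site dominated, since the highest held 6.17% of the cDNAs for TTP and 2.96% for TTP-AA. Of the 46 TTP sites, 45 were at a nucleotide that also held a TTP-AA site, in a 3′UTR of which TTP-AA sites covered 67.6%. The median cDNA was at nucleotide 49 for TTP and at nucleotide 73 for TTP-AA.

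The TTP and TTP-AA lists at 1 h differed in how their Ccl2 cDNAs were spread. Here and below, a cDNA lay within a given distance of an AUUUA if the whole pentamer was within that distance of its site. Within 20 nt of the AUUUA lay 48 of 81 TTP cDNAs (59.3%, 48.4 to 69.3) and 363 of 913 TTP-AA cDNAs (39.8%, 36.6 to 43.0), while 13.5% of the 3′UTR is that near. The odds ratio was 0.454 (0.277 to 0.738), adjusted p = 0.0129 by Fisher's exact test over 131 genes, of which 9.92% were called. Over all 3′UTRs with a site the shares near AUUUA were 43.3% for TTP and 41.0% for TTP-AA. Nucleotides 1 to 137 of Ccl2 held 76.5% (66.2 to 84.4) of its 3′UTR cDNAs for TTP and 60.8% (57.6 to 63.9) for TTP-AA. This gave an odds ratio of 0.475 (0.264 to 0.822), adjusted p = 0.0419 by Fisher's exact test over 147 genes, of which 15.6% were called. That second split was chosen after the values were seen. Both tests counted the cDNAs as independent, although many lay at neighbouring nucleotides of the same 3′UTR. Their p values therefore do not measure how firmly the proteins differed. The TTP-AA list was deeper on Ccl2 by 913 to 81 cDNAs, and the part of depth in this difference was not tested.

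The 10 Ccl2 cDNAs of TTP-AA at 4 h lay away from the 1 h peaks, at 6 sites between nucleotides 97 and 111. These were not new positions, since each of the 6 nucleotides also held 1 or 2 TTP-AA cDNAs at 1 h. Nucleotides 97 and 110 held 3 cDNAs each, and the other 4 sites held 1 each. The surrounding stretch is shown because no TTP cDNA fell in it at any time (chr11:82037267-82037296), and it has no ATTTA. This absence was not particular to the stretch, since TTP had no Ccl2 site between nucleotides 87 and 215 in any list.
Ccl2, nucleotides 89 to 118: cttaaatgcaaggtgtggatccatttttcc
In the TTP-AA list at 1 h this stretch held 44 of the 913 cDNAs. At 4 h, 0 of the 10 cDNAs lay within 20 nt of the AUUUA, against 363 of 913 at 1 h. This put the odds ratio at 0.681 at most, with an adjusted p of 0.0291 (Fisher's exact test over 11 genes, of which 27.3% were called), a comparison added after the values were seen. It was lost with a distance of 10 nt (adjusted p = 0.163, Fisher's exact test). Both tests counted the 10 cDNAs as independent, although all lay in a single cluster between nucleotides 97 and 111. Their p values therefore do not measure how firmly the position differed. Of the 10 cDNAs, 6 were at a C (60.0%, 31.3 to 83.2), against 7.67% (6.11 to 9.58) at 1 h. These 6 were the cDNAs of nucleotides 97 and 110. The share thus rests on 2 nucleotides, which its interval does not take into account. Over all 3′UTRs the share at C in TTP-AA was 7.64% at 1 h and 19.0% at 4 h. The cDNAs came from 2 pooled libraries, and whether both held them was not tested. The 2 TTP cDNAs of Ccl2 at 0 h were at nucleotides 34 and 35, just before the AUUUA.

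**Figure D4:**
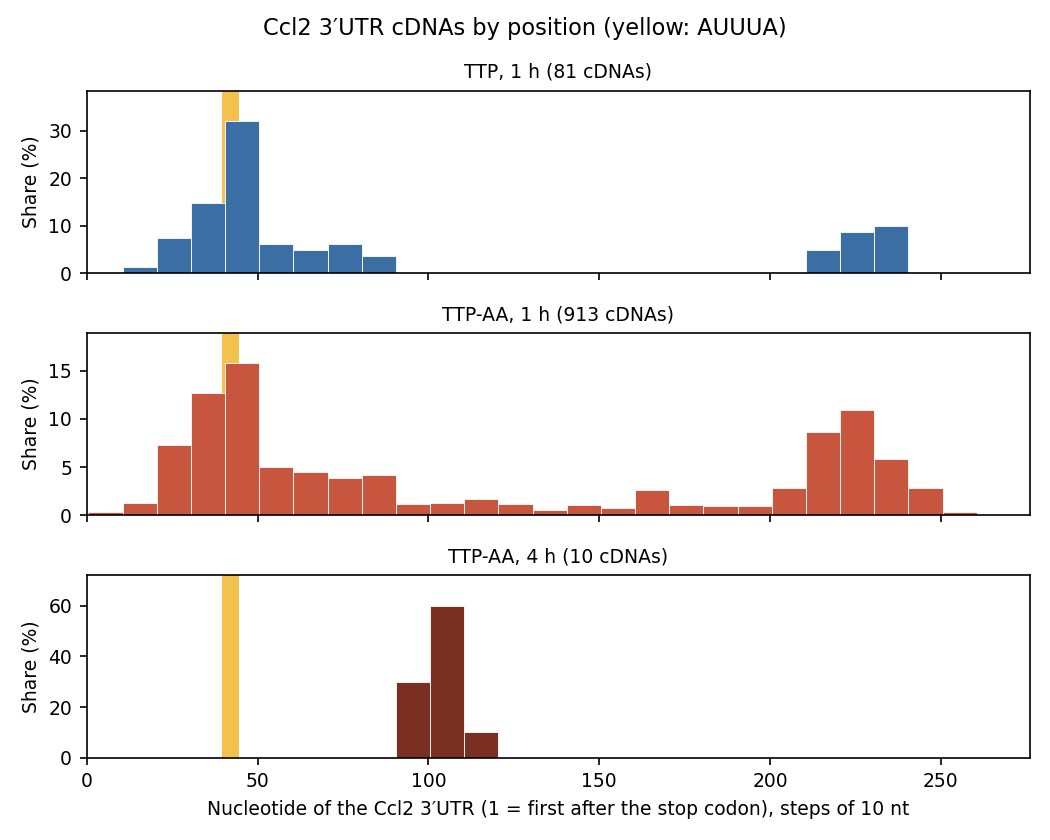
Share of the Ccl2 3′UTR cDNAs of each list (%, y axis, own scale per panel) in steps of 10 nt along the 3′UTR (x axis, nucleotides after the stop codon) for TTP at 1 h (81 cDNAs), TTP-AA at 1 h (913) and TTP-AA at 4 h (10). The AUUUA is in yellow; the 4 h cDNAs lie between nucleotides 97 and 111, away from both 1 h peaks.

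In the Ccl7 3′UTR, TTP had 11 sites between nucleotides 162 and 300 with 1 cDNA each, in 2 groups. The first group of 6 lay at nucleotides 162 to 180, beside and within the first AUUUA, and the second at nucleotides 284 to 300. TTP-AA had 69 sites between nucleotides 150 and 400, and its highest, nucleotide 388 (position 82047478), held 6 cDNAs and no TTP cDNA. Its next highest sites were nucleotide 174, with 5 cDNAs, and nucleotide 336, the first base of the second AUUUA, also with 5. Of the 11 TTP sites, 5 coincided with a TTP-AA site, in a 3′UTR of which 15.9% was covered, and all 11 had a TTP-AA site within 5 nt, with 43.2% of the 3′UTR that near. Within 20 nt of an AUUUA lay 54.5% (28.0 to 78.7) of the cDNAs for TTP and 56.8% (47.8 to 65.4) for TTP-AA, with 17.0% of the 3′UTR that near. With an odds ratio of 1.09 (0.249 to 4.57) and an adjusted p of 1.00 by Fisher's exact test, the proteins were not distinguished. At 4 h, the 4 TTP cDNAs of Ccl7 were at nucleotides 179, 180, 182 and 183, at the end of the first AUUUA, and 2 of these nucleotides also held a TTP cDNA at 1 h. The 1 TTP-AA cDNA at 4 h was at nucleotide 399.

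In Ccl12, the 14 TTP-AA cDNAs at 1 h lay at 12 sites between nucleotides 55 and 126. Nucleotide 92 (position 82103325), the first base of the second AUUUA, held 3, and the other sites held 1 each. All 14 were within 20 nt of an AUUUA (78.5 to 100%), but so was 76.6% of this 3′UTR, whose copies are closely spaced. No site fell at the last AUUUA copy, which ends the 3′UTR. A site is the nucleotide before its read, and no annotated 3′UTR follows this copy. The absence of sites there therefore cannot be read as a lack of binding.

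**Figure D5:**
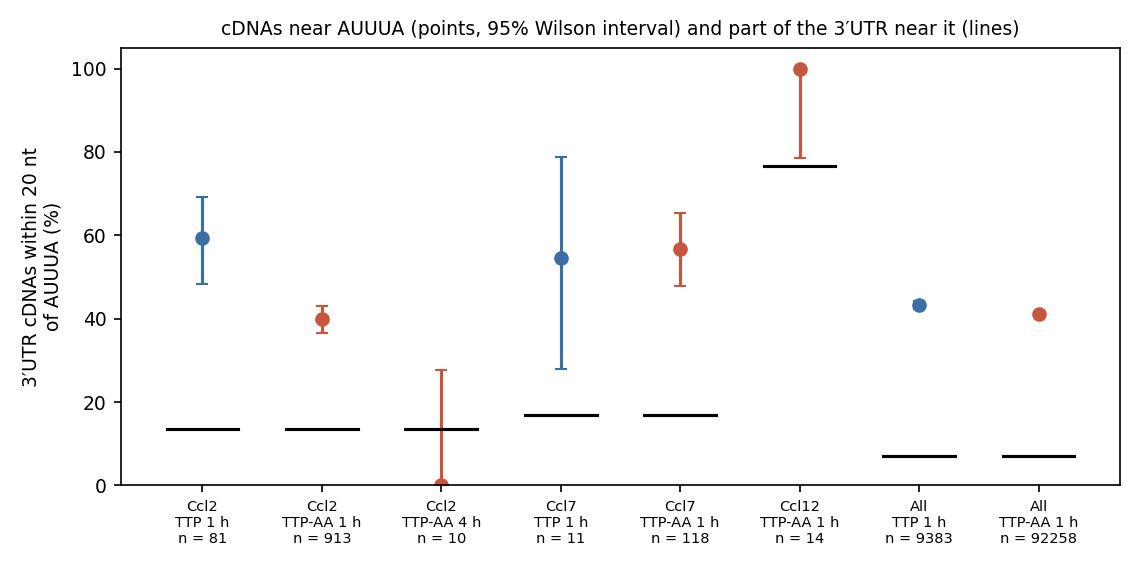
Share of 3′UTR cDNAs within 20 nt of AUUUA (%, y axis) for each gene and list with at least 10 cDNAs, and over all 3′UTRs with a site (All), with 95% Wilson intervals. The whole AUUUA had to be within 20 nt of the site. Blue points are TTP and red points TTP-AA, n is the number of cDNAs, and black lines give the part of the 3′UTR that near. Ccl2 in TTP at 1 h stands at 59.3% and in TTP-AA at 39.8%, and in TTP-AA at 4 h at 0%.

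Most crosslinked nucleotides were uridines (T in the sequences above). In Ccl2, 61.7% (50.8 to 71.6) of the cDNAs at 1 h were at T for TTP and 57.1% (53.8 to 60.2) for TTP-AA, a base that makes up 40.4% of the 3′UTR. In Ccl7, 54.5% (28.0 to 78.7) and 66.9% (58.0 to 74.8) were at T, against 34.9% of the 3′UTR. In Ccl12, 57.1% (32.6 to 78.6) of the TTP-AA cDNAs were at T, against 35.9%. Over all 3′UTRs the shares at T were 64.1% for TTP and 62.1% for TTP-AA, which lie within the intervals of Ccl7 and Ccl12 and, for TTP-AA, above that of Ccl2.

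The 3 genes were set beside the other chemokines. Of 27 chemokine ligand genes, 9 held a 3′UTR cDNA in any list, and none of the 11 chemokine receptor genes did, Ccr2 included. Of the 8 ligands tested at 1 h, 1 had a higher share in TTP-AA, the interferon-type chemokine Cxcl10, and 1 a lower share, Ccl3, where 1.95% of all 2102 genes tested were called higher and 4.28% lower. Cxcl10 had 13 TTP cDNAs and 549 TTP-AA cDNAs, and Ccl3 had 244 and 938. Ccl8 and Ccl11, which encode related chemokines, were at 0 in all lists. Per 100 nt of the longest annotated 3′UTR, Ccl2 had 332 TTP-AA cDNAs at 1 h, the highest density of the 9 ligands. The next were Ccl4 with 293 and Ccl3 with 229 cDNAs per 100 nt. Ccl7, with 27.1 per 100 nt, came sixth and Ccl12, with 8.38, seventh. This order depends on the 3′UTR length taken. Cxcl2 had 170 per 100 nt over 1494 nt, and the paper lists a shorter 3′UTR for it. Over that shorter length, the same 2536 TTP-AA cDNAs would give Cxcl2 a higher density than Ccl2. The first place of Ccl2 thus holds only for the annotation taken here. In the TTP list at 1 h, the density of Ccl2 was 29.5 per 100 nt, below the 59.7 of Ccl3, and that of Ccl7 was 2.53.

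The genes with the most similar pattern were found by the distance over the 6 lists in log2(3′UTR cDNAs per 10000 + 1), among 2219 genes with at least 10 cDNAs. They are a description, without a test. The nearest to Ccl2 was Cxcl2, a neutrophil-attracting chemokine, at a distance of 2.40. Over the times, Cxcl2 had 4, 258 and 0 TTP cDNAs, and 0, 2536 and 8 TTP-AA cDNAs. The next were Icam1, an adhesion molecule (3.48), and Sdc4, a heparan sulfate proteoglycan (3.99). The nearest to Ccl7 were Acod1, which makes itaconate (2.91), Rasgef1b (3.61) and the survival gene Bcl2l1 (3.65). For Ccl12, 51 other genes had the same values in all 6 lists, among them Cdc45, Wdr77 and Araf, so its pattern singled out no gene.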

How the data were processed

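Crosslink sites of 15 iCLIP libraries were available as 6 pooled lists, 1 per protein and LPS time. According to the study's methods and the file headers, the authors split the reads by library barcode, used 4 random bases to discard PCR duplicates, mapped reads to mm10 with Bowtie and Ensembl 75, and took the nucleotide before each read. They summed libraries and kept sites with an FDR below 0.05 (iCount, 100 permutations, 15 nt). The deposited score of a site is its whole number of unique cDNAs, with the strand as its sign. The headers of both 1 h lists carry a mark for treating regions as one that the other headers lack, so lists of different times may have been filtered differently.

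Sites were assigned to GENCODE M21 in the order 3′UTR, CDS, 5′UTR, intron, with Python 3.11.15, numpy 2.4.6, scipy 1.17.1 and pandas 2.3.3, and plotted with matplotlib 3.10.9. Genes with at least 10 3′UTR cDNAs over 2 lists were tested with two-sided Fisher's exact tests, Benjamini-Hochberg adjusted over all such genes (threshold 0.05). A gene at 0 in either list thus entered through the other list alone. Shares have Wilson and odds ratios exact 95% intervals. The tests were tested on simulated data in which cDNAs were drawn independently. The simulation had no variation between libraries, no clusters of cDNAs and no site filtering, so it does not bear on those limits. Alternatives counted sites once, required 2 cDNAs per site or 20 per gene, or used other denominators, motif distances or region orders. The genes named were Ccl2, Ccl7 and Ccl12, the chemokine list and the 3 most similar genes of each. The genes and lists were chosen with earlier results of these data known. Sites in 3′UTRs shared by several genes counted for each.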

Additional observations from a re-analysis of the deposited data

How the results depend on the processing

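Of 101 recalculated values, 63 kept their direction and their side of the threshold or moved within their interval, 7 reversed, 7 passed the threshold newly in the same direction, 7 lost it and 17 shares or counts moved. Of the 7 that reversed, 3 also passed the threshold newly, so 10 passed newly in all. When each site counted once, the odds ratio of TTP-AA over TTP at 1 h was 0.446 for Ccl2 and 0.694 for Ccl7, and that of TTP-AA at 4 h over 1 h was 1.27 for Ccl7. With sites of at least 2 cDNAs, the Ccl2 odds ratio of TTP-AA at 4 h over 1 h was 0.703. Against all cDNAs of the list it was 0.0992 for Ccl2 and 0.0771 for Ccl7, and with all sense-strand cDNAs 0.146 for Ccl2. These denominators raised the TTP-AA over TTP odds ratios at 1 h to 6.44 and 4.45 for Ccl2, 6.11 and 4.33 for Ccl7, and lower bounds of 1.89 and 1.46 for Ccl12, in step with the genes called higher, 1783 of 2102 and 1519 of 2833 against 41 of 2102 with 3′UTR cDNAs as the denominator. Genes called lower numbered 9, 265 and 90. The lower bound of the Ccl7 odds ratio of TTP at 1 h over 0 h was 1.25 with sites once, 0.849 against all cDNAs and 0.893 with all sense-strand cDNAs, each without a call. For TTP-AA it was 1.29 with sites once and 1.07 with sites of at least 2 cDNAs. The upper bound for Ccl2 in TTP at 4 h over 1 h was 1.05 with sites once. The cause of these changes was not tested. Against all cDNAs, the TTP comparison of 1 h with 0 h called 32 genes higher and 94 lower (66 and 65 with 3′UTR cDNAs), that of 4 h with 1 h 4 and 47 (24 and 10), and the TTP-AA comparisons 468 and 35 (63 and 221) and 5 and 272 (60 and 2).

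Within 10 nt and 50 nt of AUUUA lay 42.0% and 76.5% of the Ccl2 TTP cDNAs at 1 h and 25.4% and 55.0% of the TTP-AA cDNAs, and the sites counted once gave 43.5% and 19.9%. For Ccl7 the shares were 27.3% and 81.8% in TTP and 41.5% and 78.0% in TTP-AA, and the odds ratio was 0.788 within 50 nt. The Ccl2 difference between the 2 lists at 1 h held at both distances (odds ratios 0.471 and 0.375). The upper bound for TTP-AA at 4 h over 1 h was 1.32 within 10 nt. For 45.5% of the Ccl7 TTP sites a TTP-AA site was at the same nucleotide. Counted once, 71.9% of the Ccl2 sites were in its 3′UTR for TTP and 77.8% for TTP-AA. Of the chemokine genes, 0 were called higher and 4 lower with sites once (0.885% and 4.63% of all 1921 genes tested), and 8 higher and 0 lower against all cDNAs (84.8% and 0.428% of all 2102). At 4 h, Ccl2 could not be tested between the proteins with sites once, with 2 cDNAs per site or with 20 cDNAs per gene, since too few counts were left. No paired analysis was possible because each list is a sum over libraries and its columns carry no replicate, and for the same reason no library could be left out. The 4 h lists limit the depth, with 906 and 1000 3′UTR cDNAs.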
